A study of Mus musculus and Homo sapiens with 41 samples.

Results

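Histone variants whose genes are expressed outside S phase were examined in mouse myeloid progenitors that lacked or gained PLZF, the transcription factor encoded by Zbtb16. The 10 genes were chosen by name: H2afz and H2afv (both H2A.Z), H2afx (H2A.X), H2afj (H2A.J), H2afy (macroH2A1), H3f3a and H3f3b (both H3.3), H1f0 (H1.0), H1fx (H1X) and Cenpa (CENP-A). All 10 were found among the 53756 genes listed for granulocyte-monocyte progenitors (GMPs) and among the 13238 genes listed for the 416b cell line. The study covered 41 samples, and the RNA-seq libraries are used here. GMPs were sorted from bone marrow of C57BL/6 background as cells with C-kit, Cd34 and FcγR but without Sca-1 or lineage markers. The marrow was wild type (WT) or homozygous for the luxoid allele of Zbtb16 (Zbtb16lu/lu). Per the study's methods the Zbtb16lu/lu strain was C57BL/6 Cd45-2, and total marrow of either genotype had been given to lethally irradiated C57BL/6 Cd45-1 recipients, so both GMP populations had developed in hosts without the mutation. The deposited table held 2 libraries per genotype, the ages of the animals were not given in the sources used here, and the p-values measure only the spread between these libraries. The 416b line is a Cd34+ murine myeloid progenitor line, and its cells carried a PLZF-Flag lentivirus or the Empty vector and were sorted for GFP, with 1 library for each.

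Most histones are made from clustered replication-dependent genes, whose messages have no poly(A) tail, end just after a conserved stem-loop and accumulate in S phase to package new DNA. Replication-independent variants come from scattered, usually spliced genes with polyadenylated messages, and they are exchanged into chromatin by dedicated chaperones and remodellers throughout the cell cycle. H2A.Z and H3.3 sit at promoters and regulatory elements, H2A.X is phosphorylated beside DNA breaks, macroH2A and H1.0 are associated with compact chromatin and differentiation, and CENP-A marks the centromere.

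The stem-loop sequences are shown because they separate the H2A.X gene from the other variants. The search was for a 16-base match with the form of the histone stem-loop on the transcribed strand of GENCODE M21 transcripts (mm10). Complementary 6-base arms had to lie around a 4-base loop that begins with TT. The first arm had to begin with GG, end with T and hold only C or T between, so the second ends with CC. Such a match was present in 44 of 67 replication-dependent histone genes (65.7%), in 12 of 55373 genes that were neither these nor variants (0.0217%), and in 1 of the 10 variant genes, H2afx. A match is a description of the letters. In the sequences below the 16-base stem-loop is in capitals, and the DNA letters of the sense strand are given 5′ to 3′. The first belongs to the variant, the second carries the commonest match of the replication-dependent genes (the same 16 bases in 26 of them) and the third a match found in 7 of them.
H2afx: caaaGGCCCTTTTAAGGGCCaccac
Hist2h3c2: caaaGGCTCTTTTCAGAGCCaccac
Hist1h4f: caaaGGCCCTTTTCAGGGCCaccca
The 16 bases of H2afx occurred in 0 replication-dependent genes. They lie on the plus strand at chr9:44335240-44335255, in the 3′ untranslated region of this single-exon gene. The match starts after 46 bases beyond the stop codon, and 822 bases of annotated transcript follow it, so the annotated H2afx message runs well past the stem-loop. In the replication-dependent genes with a match this annotated tail ran from 3 to 4884 bases, with 377 in Hist2h3c2 and 33 in Hist1h4f. A long annotated tail thus did not set H2afx apart from those genes. H2afx (chromosome 9, 44334694 to 44336077) lies 4.32 Mb from Zbtb16 on the same chromosome.

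The targeted gene and the cell identity were checked first. Zbtb16 stood at 705 and 828 normalized counts (counts divided by the library's size factor) in the WT libraries and at 369 and 269 in Zbtb16lu/lu. The log2 fold change was -1.28 ± 0.20 (SE; limma unadjusted p = 0.000165, adjusted p = 0.299). The targeted gene itself thus did not pass the adjusted p of 0.08 used as threshold for the variants. In 416b cells it was 6.63-fold higher with PLZF-Flag (632 and 1538 reads, 95% interval 6.05 to 7.30). The 10 GMP markers were listed above 0 and summed to 739065 to 748940 normalized counts in WT and to 848332 to 857829 in Zbtb16lu/lu GMPs, Kit and Cd34 included. Mpo made up most of these sums (477326 and 483375 in WT, 552003 and 543288 in Zbtb16lu/lu). Kit had a log2 fold change of -0.03 and Cd34 of 0.10, both overlapping between genotypes. Of the 10, 1 was higher at a limma unadjusted p below 0.05 (5.5% of all genes) and 0 were lower. Normalized counts of all genes summed to between 38562940 and 40130730 per library. Mature neutrophil markers summed to 6473 to 14171 in WT and 10501 to 21023 in Zbtb16lu/lu, with 6 of 10 higher at an unadjusted p below 0.05, as were 5.5% of all genes. Monocyte markers summed to 80671 to 97123 and to 110708 to 118987, with 6 of 8 higher at that threshold. B cell markers summed to 1069 to 1120 in WT and 1203 to 1291 in Zbtb16lu/lu, without overlap, and T and NK cell markers to 16.9 to 22.2 and to 26.1 to 38.0, with 1 of 6 in either list passing the filter on low values. The T cell marker tested, Cd3d, was low but higher without overlap in Zbtb16lu/lu (2.98 and 3.86 normalized counts in WT, 19.5 and 12.0 in Zbtb16lu/lu, limma unadjusted p = 0.0357, adjusted p = 0.481). Erythroid markers summed to 499 to 1802, with 0 of 8 at an unadjusted p below 0.05 in either direction. Of the 10 GMP markers, 9 were listed for 416b cells, with Cd34 at 11059 (Empty vector) and 8823 (PLZF-Flag) normalized counts, a log2 ratio of -0.33. The part of the neutrophil, monocyte, B cell and T cell genes in the results for the variants was not tested. In such bulk samples, fewer cells of a type and less RNA per cell cannot be told apart.

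In Zbtb16lu/lu GMPs most of the variant genes had higher normalized counts than in WT, by modest amounts. For H2afx, H2afj, H2afv, H2afy, H1f0 and H1fx both Zbtb16lu/lu libraries lay above both WT libraries, for H2afz both lay below, and H3f3a, H3f3b and Cenpa overlapped. The median log2 fold change of the 10 genes was 0.28, against -0.01 over all 20531 genes tested. All 10 passed the filter on low values (at least 10 in at least 2 libraries), each in all 4 libraries. None of the 10 passed an adjusted p of 0.08 in limma, the background being 0.0% (0 of 20531 genes). At an unadjusted p below 0.05, 5 of 10 were higher, where 5.5% of all genes were, and 1 was lower, where 4.37% were. Complete separation of the libraries, 6 genes higher and 1 lower, stands against 21.7% and 22.1% of all genes. An exact permutation test of 2 against 2 libraries cannot go below p = 0.33 (two-sided).

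**Figure D1:**
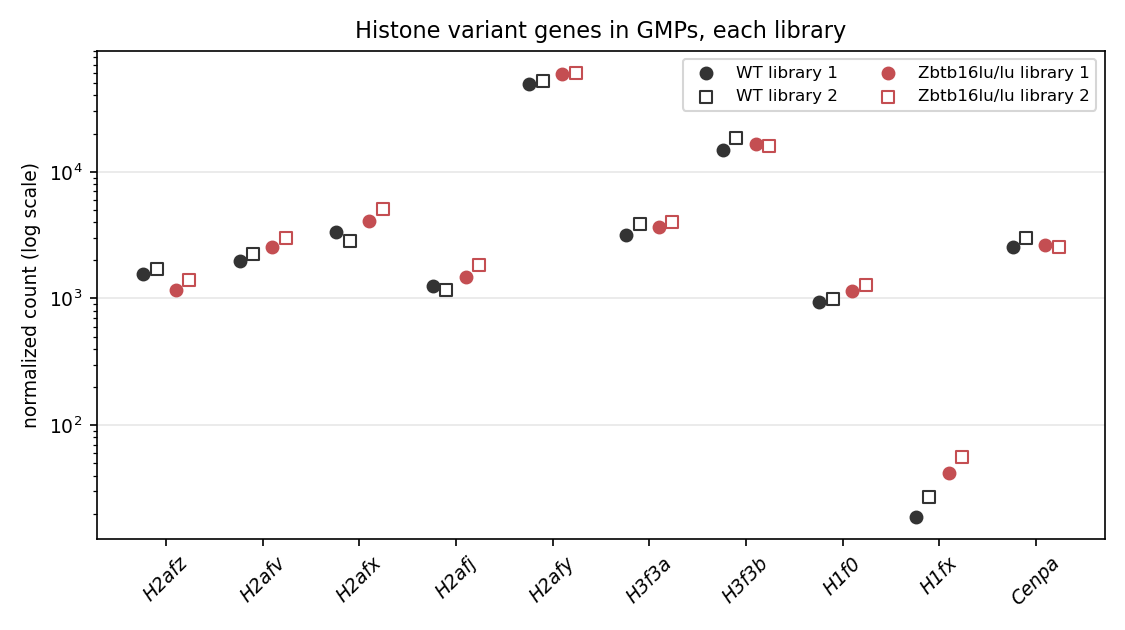
Normalized count (log scale) of the 10 variant genes in each GMP library, with WT in black and Zbtb16lu/lu in red (filled circles library 1, open squares library 2). H2afx, H2afj, H2afv, H2afy, H1f0 and H1fx have both red points above both black ones, and H2afz has both below.

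H2A.X, the variant phosphorylated around DNA breaks, gave the smallest p-value of the 10 in the counts as listed, though not with the GC and length offsets. H2afx stood at 3363 and 2854 normalized counts in the WT libraries, against 4082 and 5087 in Zbtb16lu/lu. Both Zbtb16lu/lu libraries lay above both WT libraries, and the log2 fold change was 0.56 ± 0.15 (SE; limma unadjusted p = 0.00445, adjusted p = 0.378). The WT library and the Zbtb16lu/lu library whose column names carry the same date differed by 0.28 on the log2 scale, and the other pair by 0.83. The longest H2afx transcript has a GC content of 62.3%, above 98.0% of the genes tested. Offsets fitted per library on GC content and exon length brought the log2 fold change of H2afx to 0.22 (limma unadjusted p = 0.104), still without overlap.

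Replication-dependent histone genes are given for comparison. Of 66 replication-dependent histone genes tested, 66 had a log2 fold change above 0 (49.1% of all genes) and 57 of these had an unadjusted p below 0.05 (5.5% of all genes), with a median of 0.88 (0.73 with the offsets) and 0 past the adjusted threshold. Their normalized counts summed to 397526 and 295328 in the WT libraries, against 479746 and 586757 in Zbtb16lu/lu. The 44 genes with a match had a median of 0.88 and the 22 tested genes without one a median of 0.87. With the GC and length offsets these medians were 0.80 and 0.53, and the difference between the groups was not tested. These libraries were made from rRNA-depleted total RNA, which takes in messages with and without poly(A) tails.

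**Figure D2:**
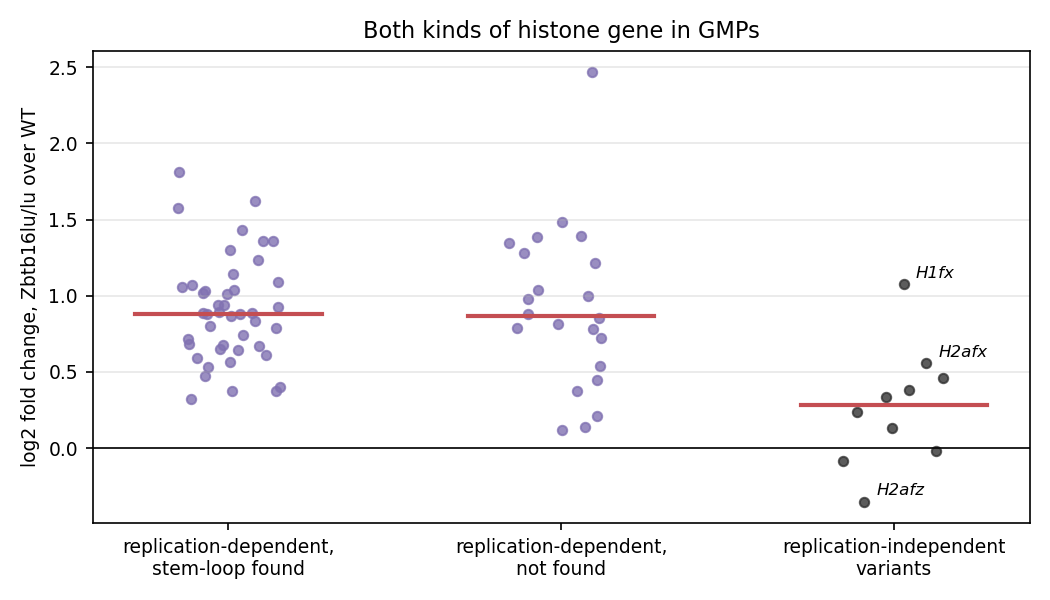
Log2 fold change of Zbtb16lu/lu over WT GMPs for replication-dependent histone genes with and without a stem-loop match (purple) and for the 10 variants (black), 1 point per gene, with the median as a red line. The medians are 0.88, 0.87 and 0.28, without offsets, and H2afx at 0.56 lies below the median of both replication-dependent groups.

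H2A.J is an H2A variant with an altered C-terminal tail. Its gene H2afj (mm10 chromosome 6, 136808244 to 136810074) had 1246 and 1158 normalized counts in the WT libraries, against 1471 and 1852 in Zbtb16lu/lu. The groups did not overlap, and the log2 fold change was 0.46 ± 0.15 (limma unadjusted p = 0.0146, adjusted p = 0.428). It was 0.24 between the libraries of the same date, 0.68 between the others and 0.36 with the GC and length offsets.

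MacroH2A1 carries a large globular domain on its C-terminus. H2afy (mm10 chromosome 13, 56073619 to 56136361) had 49237 and 52264 normalized counts in the WT libraries, against 59065 and 60240 in Zbtb16lu/lu. The libraries did not overlap and lay close together within each genotype, but the difference was small, with a log2 fold change of 0.23 ± 0.12 (limma unadjusted p = 0.0817, adjusted p = 0.546). An antisense gene, Gm47071, shares 7.36% of the H2afy exon bases. It was itself counted at 11135 and 12678 in the WT libraries, against 13394 and 13475 in Zbtb16lu/lu, also higher without overlap. The strand setting of the counting is not given in the sources used here, so reads over the shared bases cannot be assigned to either gene.

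The pair of H2A.Z genes went in opposite directions in the counts as listed. H2afz (mm10 chromosome 3, 137864487 to 137866922) had 1550 and 1720 normalized counts in the WT libraries, against 1168 and 1401 in Zbtb16lu/lu, a log2 fold change of -0.35 ± 0.14 (limma unadjusted p = 0.0383, adjusted p = 0.490). H2afv (mm10 chromosome 11, 6427229 to 6444443) had 1973 and 2252 normalized counts in the WT libraries, against 2531 and 2988 in Zbtb16lu/lu, a log2 fold change of 0.38 ± 0.14 (limma unadjusted p = 0.0215, adjusted p = 0.462). Neither gene overlapped between genotypes, and both fold changes held their sign with the offsets (-0.32 and 0.44; limma unadjusted p = 0.0302 and 0.00455, the latter the smallest of the 10 with offsets). Without regard to length, H2afv made up 56.0% and 56.7% of the pair's counts in WT and 68.4% and 68.1% in Zbtb16lu/lu. The log2 ratio of H2afv to H2afz was 0.35 and 0.39 in the WT libraries, against 1.12 and 1.09 in Zbtb16lu/lu, a difference of 0.74 (exact permutation p = 0.33, the smallest possible), while the summed counts of the pair overlapped (3747 ± 317 and 4044 ± 488, SD, n = 2).

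The value of H2afz depends on how reads were handled among near-identical sequences. The GMP column names carry the word unique, so reads that fit several places may have been left out of all these counts. A processed pseudogene, Gm8203, is identical to H2afz over 387 bases and was listed at 13408 and 11607 normalized counts in the WT libraries, against 12481 and 14792 in Zbtb16lu/lu, several times the values of H2afz. Gm8203 lies wholly within exons of Tmcc1, of which it covers 1.92%, and the count of Tmcc1 exceeded that of Gm8203 by 433 to 523 only. Nearly all reads listed for Tmcc1 thus lay on the stretch that matches H2afz. In the 416b table, which does not list Gm8203, Tmcc1 stood at 332 and 365 normalized counts beside 10862 and 9890 for H2afz. With its 3 pseudogenes of at least 95% identity over at least 200 bases, H2afz summed to 15195 and 13511 normalized counts in the WT libraries, against 13971 and 16558 in Zbtb16lu/lu. These sums overlapped between genotypes, with a log2 fold change of 0.09 ± 0.13 in place of -0.35 (limma unadjusted p = 0.521, adjusted p = 0.837). The pseudogenes held 87.3% to 91.6% of the sums, so the direction for H2afz is uncertain. The log2 ratio of H2afv to this sum was -2.94 and -2.58 in the WT libraries, against -2.46 and -2.47 in Zbtb16lu/lu, still without overlap but by a smaller margin. H2afv had no pseudogene of that identity.

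**Figure D3:**
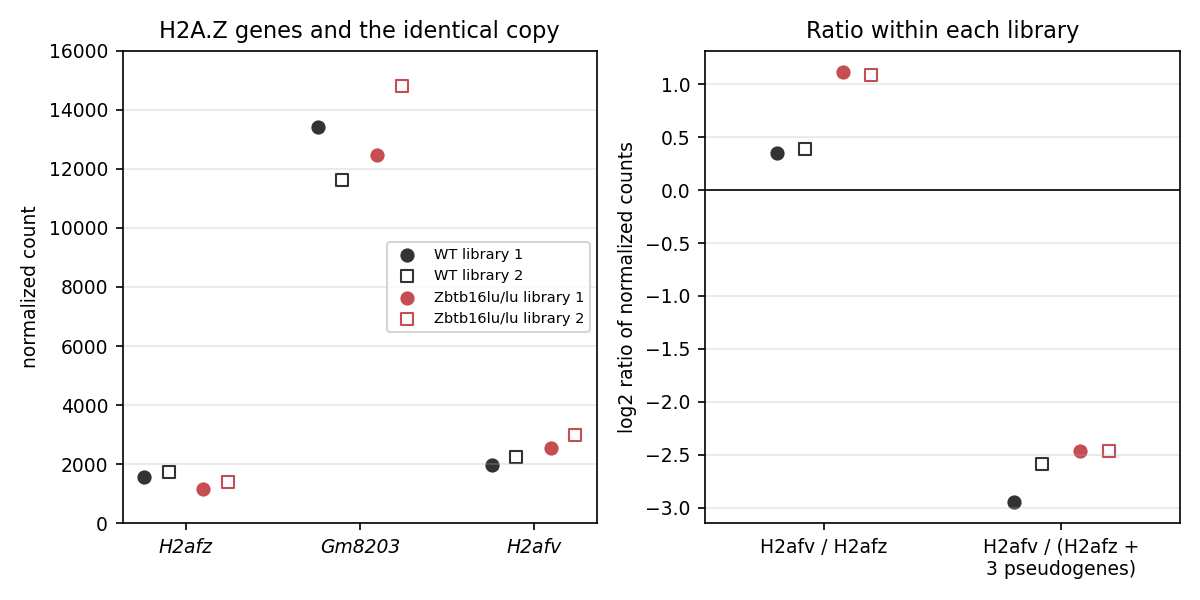
Left, normalized counts of H2afz, of the pseudogene identical to it over 387 bases (Gm8203) and of H2afv in each GMP library; right, log2 ratio of H2afv to H2afz and of H2afv to the sum of H2afz and its 3 pseudogenes. WT is black and Zbtb16lu/lu red; the counts of Gm8203 are far above those of H2afz, and the ratio is higher in both Zbtb16lu/lu libraries under either definition.

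H3.3, the replacement form of H3, is made by H3f3a and H3f3b, which encode the same protein. H3f3a (mm10 chromosome 1, 180800832 to 180813943) had 3163 and 3870 normalized counts in the WT libraries, against 3669 and 3993 in Zbtb16lu/lu, a log2 fold change of 0.13 ± 0.13 (limma adjusted p = 0.753). H3f3b (mm10 chromosome 11, 116021912 to 116027962) had 14872 and 18516 normalized counts in the WT libraries, against 16699 and 16072 in Zbtb16lu/lu, a log2 fold change of -0.02 ± 0.13 (limma adjusted p = 0.970). Both genes overlapped between genotypes, and the larger gap in H3f3b was between the WT libraries themselves. With the GC and length offsets H3f3a stood at 0.25 without overlap (limma unadjusted p = 0.0401). The summed counts of the pair were 20211 ± 3077 in WT and 20217 ± 214 in Zbtb16lu/lu (SD, n = 2). H3f3b made up 82.5% and 82.7% of the pair in WT and 82.0% and 80.1% in Zbtb16lu/lu.

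Both H3.3 genes also have near-identical pseudogenes that were counted separately. The 18 pseudogenes of H3f3a, with Gm6421 the most abundant (3162 to 4795), took 69.2% to 72.9% of the sum with H3f3a, and the 2 of H3f3b took 19.6% to 27.2%. With them added, H3f3a stood at 11625 and 12566 normalized counts in the WT libraries, against 12794 and 14762 in Zbtb16lu/lu (log2 fold change 0.19 ± 0.12, limma adjusted p = 0.614), and H3f3b at 0.03 ± 0.12. H3f3a no longer overlapped between genotypes in these sums. The single pseudogene of H2afx took 3.08% to 4.13% and left its log2 fold change at 0.56. An antisense gene, Gm17275, shares 18.2% of the H3f3a exon bases and was counted at 1923 to 2548.

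Of the linker histones, H1.0 accumulates in cells that leave the cycle and differentiate. H1f0 (mm10 chromosome 15, 79028450 to 79030504) had 936 and 989 normalized counts in the WT libraries, against 1140 and 1288 in Zbtb16lu/lu. The genotypes did not overlap, with a log2 fold change of 0.33 ± 0.14 (limma unadjusted p = 0.0417, adjusted p = 0.491), and the same-date and other pairs gave 0.28 and 0.38. With the GC and length offsets it was 0.29 (limma unadjusted p = 0.0511), which no longer passed 0.05. An antisense gene, Gm49544, shares 7.93% of the H1f0 exon bases and was not listed for GMPs under that name. H1fx (mm10 chromosome 6, 87980421 to 87981637), the gene of H1X, was low, at 18.9 and 27 normalized counts in the WT libraries, against 42.2 and 56.2 in Zbtb16lu/lu. Its log2 fold change of 1.07 ± 0.44 (limma unadjusted p = 0.0394, adjusted p = 0.491) was the largest of the 10 genes and had the largest error. H1fx has a GC content of 71.3%, above 99.8% of the genes tested, and with the GC and length offsets the log2 fold change was 0.38 (limma unadjusted p = 0.445) and the genotypes overlapped. The antisense gene Gm5577 shares 17.5% of the H1fx exon bases and was counted at 430 to 527, without regard to length.

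CENP-A, the H3 variant of the centromere, did not separate the genotypes. Cenpa (mm10 chromosome 5, 30666777 to 30674830) had 2546 and 2981 normalized counts in the WT libraries, against 2664 and 2526 in Zbtb16lu/lu, a log2 fold change of -0.09 ± 0.13 (limma unadjusted p = 0.515, adjusted p = 0.834), with the larger gap between the WT libraries.

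**Figure D4:**
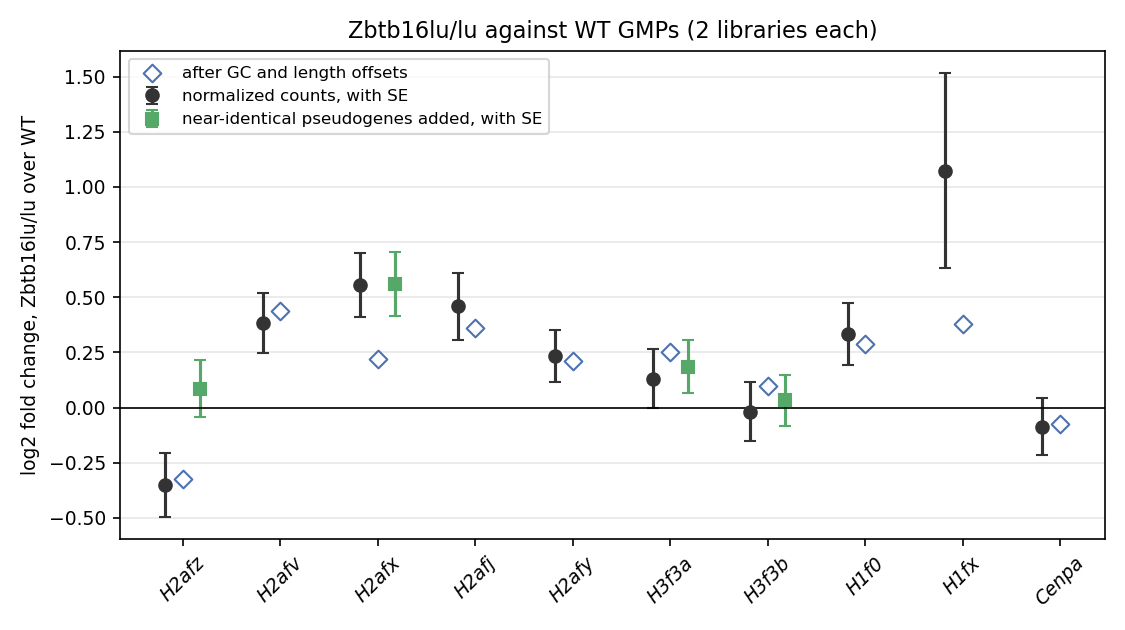
Log2 fold change of Zbtb16lu/lu over WT GMPs for the 10 variants: black circles from the normalized counts with SE, blue diamonds after offsets for GC content and gene length, green squares with SE after adding near-identical pseudogenes (4 genes that have any). H2afz moves from -0.35 to 0.09 when pseudogenes are added, and H1fx from 1.07 to 0.38 and H2afx from 0.56 to 0.22 with the offsets.

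The genes that place or remove these variants were read next, from lists of known factors. Of 13 genes of H2A.Z exchange, which include the Srcap, Ep400 and Ino80 remodellers, 0 were higher (5.5% of all genes) and 1 was lower (4.37% of all genes) at an unadjusted p below 0.05, with a median log2 fold change of -0.05. A single gene of 13 is near the share of all genes. It was Anp32e, the chaperone that removes H2A.Z, at 7043 and 6572 normalized counts in the WT libraries, against 5651 and 5597 in Zbtb16lu/lu (-0.27 ± 0.11, limma adjusted p = 0.481). With the GC and length offsets Anp32e was at -0.18 and 0 of the 13 were lower at that threshold. Of the 10 genes of H3.3 deposition (Hira, Daxx, Atrx and their partners) 0 passed in either direction, and the median was -0.07. Hira itself was at -0.03 and Daxx at 0.09. Of 9 genes of replication-coupled assembly, which place newly made H3 behind the fork, 0 passed, with a median of 0.02.

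Among 14 genes of CENP-A loading and the constitutive centromere, 1 was higher at an unadjusted p below 0.05, near the 5.5% of all genes, and 0 were lower. It was Cenpm, at a log2 fold change of 0.60 ± 0.19 (limma adjusted p = 0.428). The CENP-A chaperone Hjurp was at 16148 and 16753 normalized counts in the WT libraries, against 16449 and 14914 in Zbtb16lu/lu, which overlap. Of 9 genes of H2A.X signalling, among them Atm and Trp53bp1, 0 passed in either direction, with a median of -0.14 (-0.05 with the GC and length offsets). Of the 11 genes listed for the expression and 3′ processing of replication-dependent histone messages 0 passed as well. Slbp, the protein that binds the stem-loop, had 3827 and 3106 normalized counts in the WT libraries, against 3967 and 4008 in Zbtb16lu/lu, a log2 fold change of 0.21 ± 0.13 (limma adjusted p = 0.603).

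Among the lists of deposition factors, the chaperones of H2A-H2B and H1 had most genes lower without overlap and most lower at an unadjusted p below 0.05. Both Zbtb16lu/lu libraries lay below both WT libraries for 7 of 8 genes (22.1% of all genes), and 3 were lower at an unadjusted p below 0.05 (4.37% of all genes), with a median of -0.25 (-0.14 and 1 gene with the offsets). Ncl, nucleolin, had 46328 and 46711 normalized counts in the WT libraries, against 34597 and 34865 in Zbtb16lu/lu (-0.42 ± 0.11, limma adjusted p = 0.390). Npm1, nucleophosmin, was at -0.36 ± 0.13 and Nap1l1, a nucleosome assembly protein, at -0.29 ± 0.12. With the offsets Ncl was at -0.29, Npm1 at -0.23 and Nap1l1 at -0.13. Ncl and Npm1 are also abundant nucleolar proteins of ribosome assembly.

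Cell cycle genes were read beside the variants, since S phase and mitotic messages could move with histone genes. Of 20 S phase genes 1 was higher at an unadjusted p below 0.05, near the 5.5% of all genes, and the median was 0.04. It was Cdt1, the licensing factor (0.53 ± 0.13, limma adjusted p = 0.370). With the GC and length offsets Cdt1 was at 0.34, and 2 of the 20 were higher at that threshold. Of 18 G2/M genes 7 were lower at that threshold (4.37% of all genes), and all 18 had a log2 fold change below 0 (50.9% of all genes), with a median of -0.25 (-0.21 with the offsets). Bub1, a spindle checkpoint kinase, was at -0.41 ± 0.12 (limma adjusted p = 0.422). The part of these cell cycle genes in the variant results was not tested.

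For an order of levels between genes, normalized counts were divided by the kilobases of exon, over the union of annotated exons. In WT GMPs the order of mean levels was H2afy (7453 per kilobase), H3f3b (5610), H2afx (2246), H2afv (1294), H3f3a (1004), H2afz (921), H2afj (657), Cenpa (472), H1f0 (468) and H1fx (18.9). The 2 WT libraries overlapped between the neighbours H3f3a and H2afz and between Cenpa and H1f0, and all other neighbours were apart. This order holds for the counts as listed. With the reads of their pseudogenes added, the levels per kilobase in WT libraries 1 and 2 were 8556 and 7608 for H2afz, 6825 and 7734 for H3f3b and 3318 and 3586 for H3f3a. H2afy, at 7231 and 7676, then overlapped with both H2afz and H3f3b, so its first place is not secure.

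In 416b cells, each variant with enough reads stayed within a log2 ratio of 0.32 of the Empty vector, in either direction, when PLZF-Flag was expressed. The 13238 listed genes held 54529689 (Empty vector) and 19995819 (PLZF-Flag) recovered reads, where 1 read is worth 0.605 and 1.65 normalized counts. Ratios are on the log2(normalized count + 1) scale. Their 95% exact binomial (Clopper-Pearson) intervals hold the counting error alone, and there is no replicate check. Of the 9 variants whose mean reached 10 normalized counts, 0 were at or above a log2 ratio of 0.32 and 0 at or below -0.32, where 4.59% and 7.3% of all 11836 such genes were. Their median log2 ratio was -0.07, against 0.00 for all of these genes.

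H1f0 had the largest ratio. It was covered by 1006 (Empty vector) and 446 (PLZF-Flag) reads, or 609 and 737 normalized counts, a log2 ratio of 0.28 (0.11 to 0.44). H2afj was at 15600 and 17246 normalized counts, a log2 ratio of 0.14 (0.11 to 0.18), and H2afv at 7252 and 7586, a log2 ratio of 0.06 (0.02 to 0.11). These were the 3 variants with intervals above 0. H2afz went from 10862 to 9890 normalized counts, a log2 ratio of -0.14 (-0.18 to -0.09). H3f3a was at -0.11, Cenpa at -0.10, H2afy at -0.09, H2afx at -0.07 and H3f3b at -0.06, each with an interval below 0. H1fx was covered by 7 reads and 1 read, an interval from -6.85 to 1.60, so no difference could be detected at this depth.

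**Figure D5:**
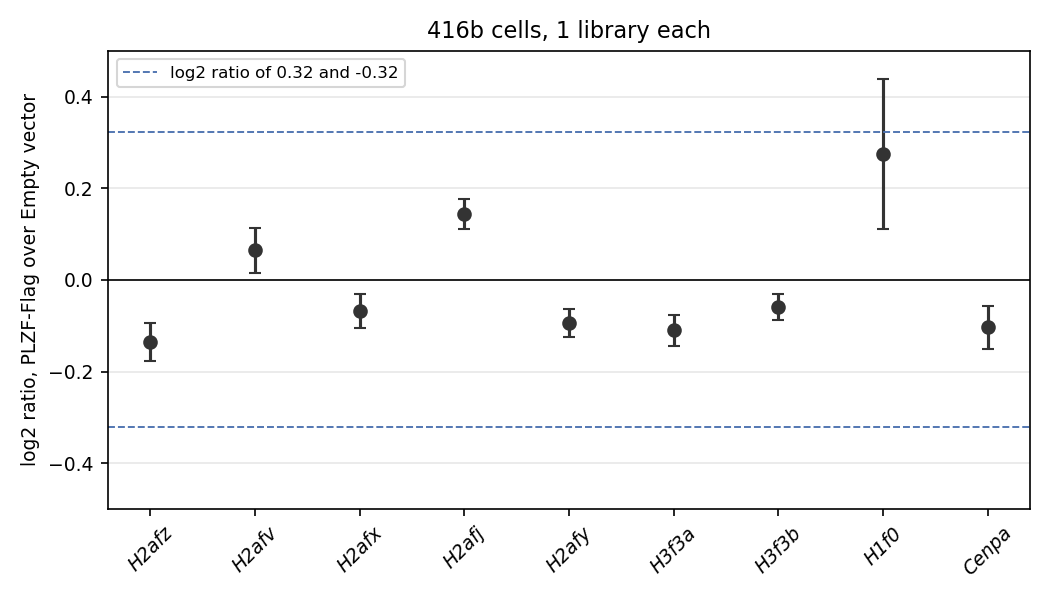
PLZF-Flag over Empty vector, as log2 ratios in 416b cells, for 9 variants, with 95% exact binomial intervals; the dashed lines mark 0.32 and -0.32. Each ratio lies between the dashed lines, and H1f0 at 0.28 has the widest interval, whose upper end passes the line.

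H2afv made up 40.0% of the H2A.Z pair in Empty vector and 43.4% in PLZF-Flag, so H2afz was the larger of the pair in both. H3f3b made up 57.4% and 58.3% of the H3.3 pair. Of 58 replication-dependent histone genes 26 were at or below -0.32 (7.3% of all genes) and 4 at or above 0.32, near the 4.59% of all genes, with a median of -0.22. Identity markers had ratios on both sides of 0. Of 8 GMP markers with enough reads 7 had a ratio below 0 and 2 lay at or below -0.32 (Cd34 at -0.33 and Ctsg at -0.47), and of 4 monocyte markers 2 did (Ccr2 at -0.82 and Lyz2 at -0.72) while the other 2 were above 0. Of 5 erythroid markers 4 were above 0 and 1 of these at or above 0.32, with a median of 0.27 and Hbb-bt, a beta-globin, at 0.27 (0.24 to 0.30). Both mature neutrophil markers with enough reads were above 0, with a median of 0.15, and the 1 T and NK cell marker was at 0.42. The part of all these markers in the histone values was not tested. These 416b libraries were made with a SMART-Seq low-input kit, which primes cDNA on poly(A) tails. Of the lists of deposition factors, H2A.X signalling had 1 gene of 9 past 0.32 in either direction (7.3% of all genes were at or below -0.32), namely Prkdc, the catalytic subunit of DNA-dependent protein kinase (log2 ratio -0.43), and H2A.Z exchange, H3.3 deposition, replication-coupled assembly, CENP-A loading, the H2A-H2B and H1 chaperones, 3′ processing, S phase and G2/M had 0.

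Per kilobase of exon the order in the Empty vector library was H2afx (9825), H2afj (8520), H3f3b (7658), H2afz (6116), H3f3a (4826), H2afv (4441), H2afy (3153), Cenpa (1486), H1f0 (296) and H1fx (3.48). H2afy, the first in WT GMPs by the counts as listed, was seventh here. The tables were normalized separately from libraries of different kits, and no ratio between them is given. The recovered reads of H2afy were not whole in either library (35471.5 and 12172.5). Those of H2afz and Cenpa were whole in the Empty vector library (17949 and 14385) but not in PLZF-Flag (5985.5 and 4905.5). How these fractions arose is not stated in the sources used here, so the values that are not whole may not be plain sums over each gene.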

How the data were processed

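GMP libraries were made from rRNA-depleted total RNA with a stranded kit and 416b libraries with a low-input cDNA kit. Per the study's methods and the submitters' processing notes, the authors aligned with Subread to mm10, assigned reads to genes with featureCounts 1.5.0 and scaled the counts by DESeq2 size factors. The deposited values are therefore signal of the kind called normalized counts here, not raw counts. The 4 columns of the authors' own comparisons (fold changes and p-values) were not used. Other assays of the series were not used here.

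For GMPs, the 20531 genes reaching 10 in 2 or more of the 4 libraries were tested with limma 3.58.1 (intensity trend) in R 4.3.3 on log2(value + 1), which understates changes of low genes. P-values were adjusted after Benjamini and Hochberg, with 0.08 as threshold. No count test was run, because the value of 1 read is too near 1 in 2 columns for the rule on recovering reads, and the depth in reads is not stated. The methods name 3 independent RNA extractions for the GMP RNA-seq, without saying whether this is per genotype. Each genotype is 1 sample of the series with 2 columns, which were taken as replicate libraries and may be technical. The first WT and the first Zbtb16lu/lu library share a date in their column names. In 416b cells the step of the values gave the reads (84.8% and 85.5% of values whole within 0.1 reads), and genes whose mean reached 10 were counted.

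Exon lengths, GC content (97.9% of the genes tested had both) and near copies came from GENCODE M21 (GRCm38), the last with blastn. The 10 genes, the lists and the tests were chosen with earlier results of these data known. Every variant is named; from a list, up to 3 genes with the smallest p (GMPs) or the largest ratio at a mean of 100 or more (416b) were named, and Hira, Daxx, Hjurp, the near copies and the antisense genes were named after their values were seen. Alternatives were other filters, pseudocounts, normalizations, offsets for GC content and length, a threshold of 0.05, no intensity trend and leaving out each library. Adding near-identical pseudogenes was chosen after seeing the data.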

Additional observations from a re-analysis of the deposited data

How the results depend on the processing

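No paired analysis was possible because no replicate number is given for any library, and a shared date links only 1 WT with 1 Zbtb16lu/lu library. In GMPs, 0 of the 10 variants passed the threshold under each alternative that kept all 4 libraries, and the smallest adjusted p of any gene was 0.209 to 0.615. Leaving out 1 library gave 0 to 5 variants, from fits with 1 residual degree of freedom in which the lone library is assumed to vary like the other genotype. Without WT library 1, 4 passed (H2afz, H2afx, H2afv and H2afj), as did 22.7% of all genes, and without WT library 2, 5 passed (H2afx, H2afv, H2afj, H1f0 and H1fx), as did 13.4% of all genes. The median log2 fold change of the 10 was 0.23 to 0.33 when a library was left out. The other alternatives gave 0.23 to 0.28 for it. The genes without overlap were 7 under each alternative with 4 libraries, except 6 of 9 at a mean of at least 100, where H1fx was not tested. They were not the same genes throughout: H3f3a took the place of H1fx with the offsets and that of H2afz with the pseudogenes added. At an unadjusted p below 0.05, the variants higher and lower were 3 and 1 with the GC and length offsets (4.69% and 3.74% of all genes), 2 and 0 without the intensity trend (5.25% and 2.65%), 6 and 0 with no filter (4.05% and 3.08%), 4 and 1 at a mean of at least 100 (6.19% and 5.84%) and 5 and 0 with near-identical pseudogenes added (5.5% and 4.37%). H2afz was no longer lower at that p without the trend, without the filter or with the pseudogenes.

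The sign of H3f3b reversed with quantile normalization (0.024), with GC and length offsets (0.10) and with near-identical pseudogenes added (0.032), and that of H2afz with the pseudogenes (0.086). Leaving out 1 library gave -0.18 to 0.14 for H3f3b, -0.016 to 0.28 for H3f3a and -0.20 to 0.027 for Cenpa; for these genes the cause was not tested. In 416b cells the median log2 ratio was -0.08 to -0.07 over the alternatives, and 0 variants passed a log2 ratio of 0.32 in either direction. With 2 libraries per genotype and 1 per vector, small differences cannot be resolved.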

Other observations

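Other variant genes outside the 10 were mostly low in GMPs. Of 8 listed, which include testis and oocyte forms, 4 passed the filter on low values, and 0 had an unadjusted p below 0.05 in limma. H2afy2, the gene of macroH2A2, had 85.5 and 148 normalized counts in the WT libraries, against 161 and 166 in Zbtb16lu/lu, a log2 fold change of 0.54 ± 0.31 (limma adjusted p = 0.578). Both Zbtb16lu/lu libraries lay above both WT libraries. Hist3h2ba, which is also counted among the replication-dependent genes with a stem-loop match, had 40.8 and 51.1 normalized counts in the WT libraries, against 63.7 and 81.3 in Zbtb16lu/lu (0.65 ± 0.35, limma adjusted p = 0.568). H3f3c, which is 99.0% identical to H3f3a over 411 bases and is one of its 18 pseudogenes above, had 1216 and 1601 normalized counts in the WT libraries, against 1209 and 1457 in Zbtb16lu/lu, which overlap.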
